A study of Mus musculus with 48 samples.

Results

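The comparison described here is the main effect of prenatal stress (PS) on hippocampal gene expression, taken over both 5-Htt genotypes. All 48 libraries of the series entered it by their labels, 33 from PS offspring and 15 from control (C) offspring, with the genotype label as a further term. Each library holds RNA of both hippocampi of 1 female C57BL/6 mouse of 3 months. PS dams were restrained in 3 sessions per day from embryonic day 13 to 17, and the dams of control offspring were not. Dams were wild type and sires 5-Htt+/-. The labels give 8 C and 16 PS libraries as 5-Htt+/+ and 7 C and 17 PS libraries as 5-Htt+/-, the latter heterozygous for a constitutive deficiency of the serotonin transporter. A sociability test split PS offspring into SA (socially affected, labelled susceptible) and SU (socially unaffected, labelled resilient) animals. The labels hold 8 SA and 8 SU 5-Htt+/+ libraries and 8 SA and 9 SU 5-Htt+/- libraries.

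Stress of the dam raises maternal glucocorticoids, and exposure of the fetus to them is one of the routes by which prenatal stress is thought to act on the offspring brain. In hippocampal cells the glucocorticoid receptor, encoded by Nr3c1, and the mineralocorticoid receptor, encoded by Nr3c2, bind the hormone, enter the nucleus and switch on a set of target genes, among them Sgk1, Tsc22d3, Fkbp5 and Per1. The level of these targets in adult tissue depends on the hormone at the time of sampling, among other inputs.

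Total counts per library ranged from 16488405 to 38213754, and 32705 to 36358 genes had at least 1 read. Levels are given as CPM, the counts scaled to libraries of equal size. Slc6a4, the gene of the serotonin transporter, had 13.6 to 15.9 CPM in C, 12.8 to 16.9 CPM in SA and 13.3 to 17.0 CPM in SU libraries labelled 5-Htt+/-. In libraries labelled 5-Htt+/+ it had at most 0.261 CPM, so that the libraries labelled 5-Htt+/- had the higher level. Which exons hold the reads cannot be seen in gene counts, and genotypes below are those of the labels. The hippocampal identity of the libraries was checked with 12 markers of its principal neurons, such as Prox1 of granule cells, which summed to 837 to 1100 CPM in C and 863 to 1130 CPM in PS libraries. Markers of the choroid plexus, a neighbouring tissue, summed to 33.5 to 789 CPM (median 53.6) in C and 31.0 to 983 CPM (median 73.3) in PS libraries. Of 17 choroid plexus genes 17 had a positive log2 fold change and 0 had an unadjusted p under 0.05. The litter of an animal is not in the labels, and p-values may be too small where libraries share one.

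Of 31208 genes tested, 13 (0.0417%) were called, that is, passed an adjusted p of 0.05 in the quasi-likelihood test of edgeR with Benjamini-Hochberg adjustment over all genes. Of these, 11 (0.0352%) were lower and 2 (0.00641%) were higher in PS than in C libraries. Sgk1, Nfkbia, Slc2a1 and Pim3 were the called genes of substantial level, all lower in PS libraries. A further 6 called genes were transcripts of few reads in 1 interval of chromosome 8. The remaining calls were RP23-185B22.1, Mir451b and M1ap, all of few reads. At an unadjusted p under 0.05, 2269 genes (7.27%) were lower and 1549 (4.96%) were higher, 3818 in all where 1560 are expected if no gene differs. That total was 1563 with the first principal component of the libraries as a further term, 1350 with the share of mitochondrial counts as a term and 1353 of 30995 genes without the 6 libraries at the far end of that component. Within 5-Htt+/- 5499 genes (17.6%) had such a p and within 5-Htt+/+ 905 (2.9%), each where 1560 are expected. Without 5-Htt+/- C replicate 7 the count of called genes was 8. When the transcripts of the chromosome 8 interval were left out of the test, or genes with few reads were filtered more strictly, 2 genes were called, which were Sgk1 and RP23-185B22.1 both times.

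Sgk1 encodes a serine/threonine kinase that glucocorticoids induce and that acts on ion channels and transporters. RefSeq lists 6 starts of the gene on the plus strand, and the window from 250 bases before to 50 after 1 of them, at chr10:21993640-21993939 in GRCm38, is shown because it carries 3 matches to the half-site TGTTCT of glucocorticoid response elements, searched on both strands and set in capitals.
Sgk1: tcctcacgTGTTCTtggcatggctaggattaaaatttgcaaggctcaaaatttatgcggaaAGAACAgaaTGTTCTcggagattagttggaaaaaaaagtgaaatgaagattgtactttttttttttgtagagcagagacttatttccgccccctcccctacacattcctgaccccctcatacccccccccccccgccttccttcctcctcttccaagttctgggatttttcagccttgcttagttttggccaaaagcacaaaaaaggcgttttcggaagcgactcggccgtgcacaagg
The window also shows 2 half-sites on opposite strands with 3 bases between them, beginning 189 bases before the start. That arrangement was searched after the sequence had been seen, and 3 (0.00913%) of 32851 RefSeq windows hold it, of which this is 1. The half-site alone is in 6233 (19%) of the windows. For comparison, the Tsc22d3 window at chrX:140600473-140600772, on the minus strand, holds 1 half-site. The Tsc22d3 windows at chrX:140542619-140542918 and chrX:140548522-140548821 hold 0 and are not shown.
Tsc22d3: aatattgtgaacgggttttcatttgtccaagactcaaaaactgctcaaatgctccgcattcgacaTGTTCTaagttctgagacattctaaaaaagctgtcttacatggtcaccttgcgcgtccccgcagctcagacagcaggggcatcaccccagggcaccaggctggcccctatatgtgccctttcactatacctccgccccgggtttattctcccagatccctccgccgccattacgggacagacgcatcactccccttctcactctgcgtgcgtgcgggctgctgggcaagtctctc
A match is a description of letters and not a measured binding site.

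Sgk1 (ENSMUSG00000019970, chromosome 10, 21882184 to 21999903) had a lowest, median and highest level of 51.0, 66.2 and 88.6 CPM in C libraries and of 41.8, 50.0 and 62.8 CPM in PS libraries. The groups overlap, yet 19 of 33 PS libraries lay below the lowest C library and 8 of 15 C libraries lay above the highest PS library. The log2 fold change was -0.37 (standard error 0.06, adjusted p = 0.000715 in edgeR's quasi-likelihood test), with a mean of 66.3 ± 12.5 CPM (SD, n = 15) in C and 51.3 ± 6.12 CPM (SD, n = 33) in PS libraries. In each of the 48 fits that left out 1 library the gene was called, with a log2 fold change of -0.39 to -0.33. With the first component, the share of mitochondrial counts, the myelin genes or the choroid plexus genes as a further term the value was between -0.37 and -0.34, and the gene was called each time.

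Nfkbia, which encodes the inhibitor of NF-kappaB that glucocorticoids and inflammatory signals induce (chromosome 12, 55489411 to 55492647), ranged over 8.28, 11.0 and 15.4 CPM (lowest, median, highest) in C and 7.26, 8.85 and 11.6 CPM in PS libraries. The groups overlap, with 6 C libraries above all PS libraries. Its log2 fold change was -0.31 (standard error 0.06, adjusted p = 0.0288 in edgeR's test). Slc2a1, which encodes the glucose transporter of the blood-brain barrier (chromosome 4, 119108711 to 119137983), ranged over 41.7, 61.5 and 88.0 CPM in C and 38.0, 48.6 and 63.8 CPM in PS libraries. Here too 6 C libraries lay above all PS libraries. The log2 fold change was -0.31 (standard error 0.06, adjusted p = 0.0381 in edgeR's test), and Gm12867 and Gm12868 on the other strand as well as Mir1957a overlap the gene. Pim3, a gene of a serine/threonine kinase that promotes cell survival (chromosome 15, 88862186 to 88865718), ranged over 13.0, 17.8 and 22.7 CPM in C and 11.7, 15.1 and 17.9 CPM in PS libraries, with 7 C libraries above all PS libraries. Its log2 fold change was -0.25 (standard error 0.05, adjusted p = 0.0443 in edgeR's test). Of 22 other settings, 12 kept the call of Nfkbia, 10 that of Slc2a1 and 8 that of Pim3. All 3 were lost without the 6 libraries at the far end of the first component, with that component, the mitochondrial share or the myelin genes as a term, and with the stricter filter. Pim3 was also lost under both other scalings, and Slc2a1 and Pim3 with the choroid plexus genes or the level of Snord116 as a term. Of the 48 fits that left out 1 library, 42 called Nfkbia, 23 called Slc2a1 and 15 called Pim3.

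**Figure D1:**
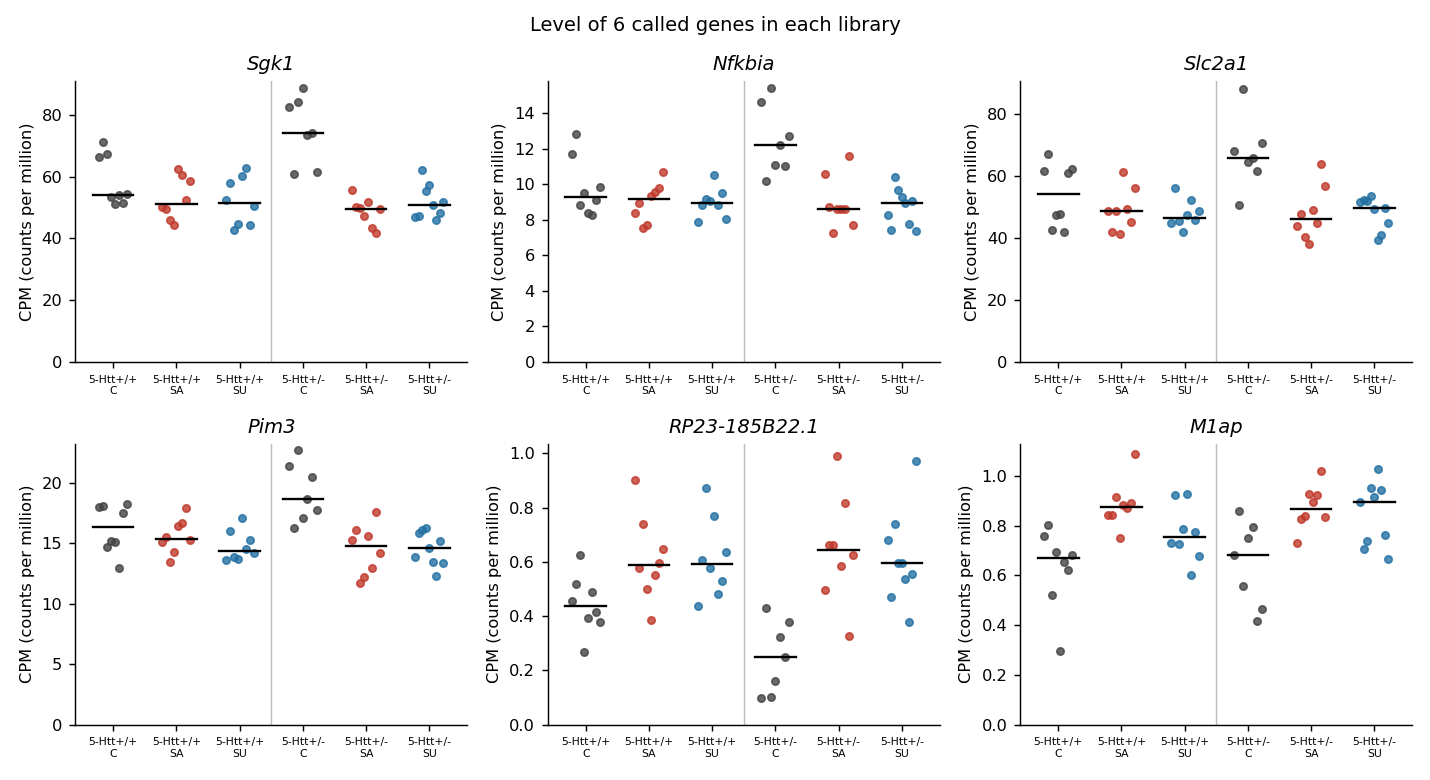
Level (y axis, CPM) of 6 called genes in each library of the 6 groups (x axis), with points for libraries and bars for group medians. The 5-Htt+/- C libraries, between 60.9 and 88.6 CPM for Sgk1, have the highest median in the first 4 panels, whereas the medians of RP23-185B22.1 and M1ap are lower in both C groups than in the PS groups.

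The C and PS libraries of the 2 genotype labels were next set side by side. Within 5-Htt+/-, Sgk1 ranged over 60.9, 74.0 and 88.6 CPM (lowest, median, highest) in C and 41.8, 49.9 and 62.0 CPM in PS libraries, and 16 of 17 PS libraries lay below all 7 C libraries. Within 5-Htt+/+ it ranged over 51.0, 54.2 and 71.1 CPM in C and 42.8, 51.4 and 62.8 CPM in PS libraries, and 8 of 16 PS libraries lay below all 8 C libraries. The PS libraries of both labels thus cover nearly the same range, whereas the C libraries do not. The log2 fold change was -0.58 (standard error 0.08, adjusted p = 2.03e-05) within 5-Htt+/- and -0.16 (standard error 0.07, adjusted p = 1) within 5-Htt+/+ in edgeR's test. The difference of these effects was -0.42 (standard error 0.11, unadjusted p = 0.000313, adjusted p = 0.489 in edgeR's test), so that a difference between the genotypes was not called.

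Nfkbia had log2 fold changes of -0.50 within 5-Htt+/- and -0.11 within 5-Htt+/+, Slc2a1 had -0.48 and -0.15, and Pim3 had -0.40 and -0.09. All 3 were called within 5-Htt+/- and none within 5-Htt+/+. M1ap, in contrast, had nearly equal values of 0.40 and 0.43. Over all genes, 53 (0.17%) were called within 5-Htt+/-, 10 higher and 43 lower, and 6 (0.0192%) within 5-Htt+/+, all of them lower and all in the chromosome 8 interval. Without the 6 libraries at the far end of the first component the count within 5-Htt+/- was 3 and that within 5-Htt+/+ stayed at 6. These counts come from fits of both labels together, in which the groups share the estimate of spread. A fit of the libraries of 1 label alone called 7 genes for 5-Htt+/- and 6 for 5-Htt+/+. The effects differed between the genotypes in 0 genes (0%) by the quasi-likelihood test and 0 by the likelihood ratio test of edgeR, while 1930 genes had an unadjusted p under 0.05 for that difference.

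Measures of the libraries were compared between C and PS within each genotype label. The share of mitochondrial counts was 4.60 ± 0.677% (SD, n = 7) in 5-Htt+/- C and 5.19 ± 0.404% (SD, n = 17) in 5-Htt+/- PS libraries, a difference of 0.592 percentage points (exact two-sided permutation p = 0.019, adjusted p = 0.19 over 10 tests of 5 measures). In 5-Htt+/+ libraries it was 5.10 ± 0.498% (SD, n = 8) in C and 5.15 ± 0.251% (SD, n = 16) in PS (exact permutation p = 0.742). Of the 6 libraries at the far end of the first principal component 4 were controls, 3 of them 5-Htt+/- C replicates 1, 3 and 7 and 1 the most extreme library, 5-Htt+/+ C replicate 7. The others were 5-Htt+/+ SA replicate 5 and 5-Htt+/- SU replicate 8, and 5-Htt+/- C replicate 4 lay near the opposite end, with 5.56% mitochondrial counts. Total counts, genes detected, haemoglobin counts and the first component gave exact permutation p of 0.0623 to 0.729 in the 4 tests within 5-Htt+/- and of 0.121 to 0.589 in the 4 tests within 5-Htt+/+. The part of these measures in the results was not tested beyond the fits that include them as terms.

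**Figure D2:**
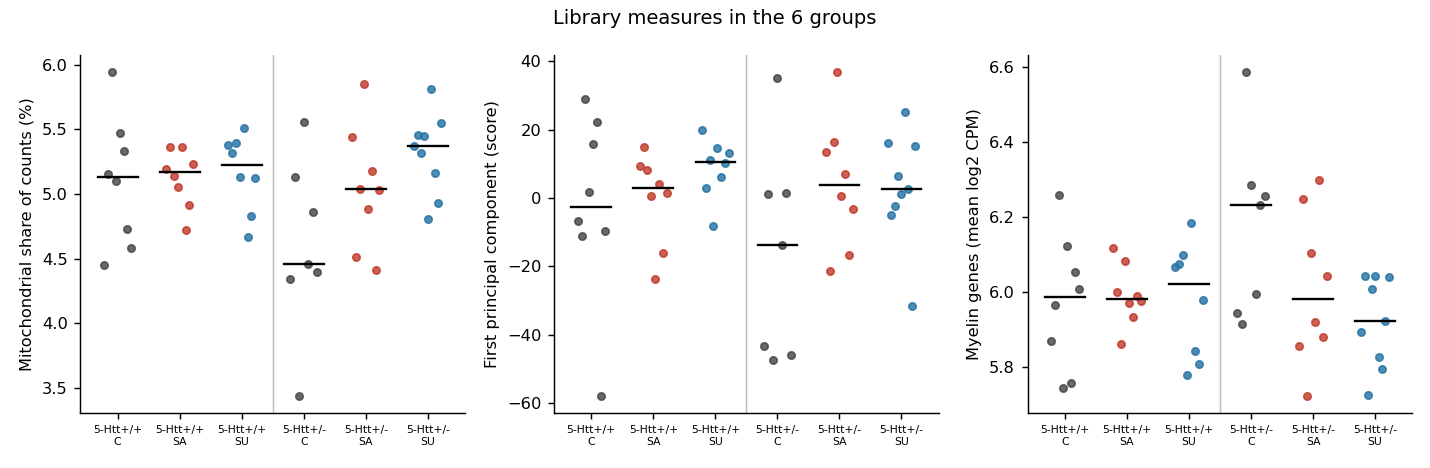
Share of mitochondrial counts (%), score on the first principal component and mean log2 CPM of myelin genes (y axes) in each library of the 6 groups (x axes), with bars for group medians. The 5-Htt+/- C libraries reach down to 3.43% mitochondrial counts, below the lowest PS library at 4.41%.

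SA and SU libraries were also compared with the same 15 controls over both genotypes. The log2 fold change of Sgk1 was -0.38 (adjusted p = 0.0148) in SA and of -0.36 (adjusted p = 0.0275) in SU libraries in edgeR's test. The difference between SA and SU was -0.02 (standard error 0.07, unadjusted p = 0.75). Nfkbia had -0.29 in SA and -0.32 in SU, Slc2a1 had -0.30 and -0.32, and Pim3 had -0.23 and -0.26, none of which passed the adjusted threshold. RP23-185B22.1 had 0.82 (adjusted p = 0.0393) in SA and 0.79 (adjusted p = 0.075) in SU, and M1ap had 0.47 and 0.37. In all, 8 genes (0.0256%) were called in SA and 6 (0.0192%) in SU libraries. Both counts were 0 where the fit held only the libraries compared, with Sgk1 at an adjusted p of 0.114 and 0.115 in edgeR's test. Between SA and SU libraries 0 genes (0%) were called by the quasi-likelihood and 0 by the likelihood ratio test of edgeR, and 1254 had an unadjusted p under 0.05.

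On chromosome 8, 7 transcripts between 9459092 and 9659449 in GRCm38 lie inside the span of Fam155a (9205902 to 9771161, minus strand). These were 4930435N07Rik on the plus strand and Gm44797, Gm44798, Gm44799, Gm44800, Gm44801 and n-R5s95 on the minus strand, the last named for 5S ribosomal RNA. The function of the others is not known from the sources used here. Their reads were divided into a low and a high range, with 0 to 6 reads in most libraries and 19 to 54 reads in a few. Gm44797 had 32 to 52 reads in 4 C libraries and at most 3 in the others, Gm44800 had 34 to 52 in 4 and at most 3 in the others, and Gm44798 had 28 to 54 in 7 libraries, of which 6 were C and 1 was PS. A library with at least 15 reads for any of the 7 transcripts was found 8 times among 15 C and once among 33 PS libraries.

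Gm44797, Gm44799, Gm44800 and Gm44801 were high in the same 4 C libraries, and the other 3 transcripts were high in 2 to 4 of these and in further libraries. All 7 were high in 5-Htt+/+ C replicates 4 and 6, 6 in 5-Htt+/- C replicate 5, 5 in 5-Htt+/+ C replicate 3, 2 in 5-Htt+/+ C replicate 1, and 1 each in 5-Htt+/+ C replicates 5 and 7 and 5-Htt+/- C replicate 6. The PS library was 5-Htt+/- SU replicate 2, with 28 reads of Gm44798. The median of Gm44797, Gm44800, Gm44801 and 4930435N07Rik was 1 read in both C and PS libraries, that of Gm44798 was 5 reads in C and 2 in PS, and that of Gm44799 was 3 and 2. The fitted log2 fold changes of the 6 called transcripts were -3.30 to -2.43, with adjusted p from 1.65e-06 to 0.00168 in edgeR's test. n-R5s95, with 22 to 51 reads in 4 C libraries and at most 1 in any PS library, had an adjusted p of 0.0623. Gm44797, Gm44800 and n-R5s95 had at most 3 reads outside the 4 C libraries where each was high. They thus passed the filter of 5 reads in 3 libraries only through C libraries, and their p-values are no independent support. The 6 calls share high libraries and are not separate results. For 4930435N07Rik the log2 fold change was 0.24 within 5-Htt+/- and -3.62 within 5-Htt+/+ (unadjusted p of the difference 3.37e-05, adjusted p = 0.298 in edgeR's test). Each of the 6 calls held in all 48 fits that left out 1 library, and each was lost where SA or SU were the only PS libraries. 4930435N07Rik was also lost under DESeq2 (adjusted p = 0.0633), the likelihood ratio test of edgeR (adjusted p = 0.098) and equal weight of the groups (adjusted p = 0.297), and Gm44800 under DESeq2 (adjusted p = 0.0541). Gm44798 and Gm44799 were lost with 5-Htt+/- libraries only, where the other called transcripts did not pass the filter on low counts. In the fit of all 48 libraries 0 of the 6 were called within 5-Htt+/- and 6 within 5-Htt+/+.

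**Figure D3:**
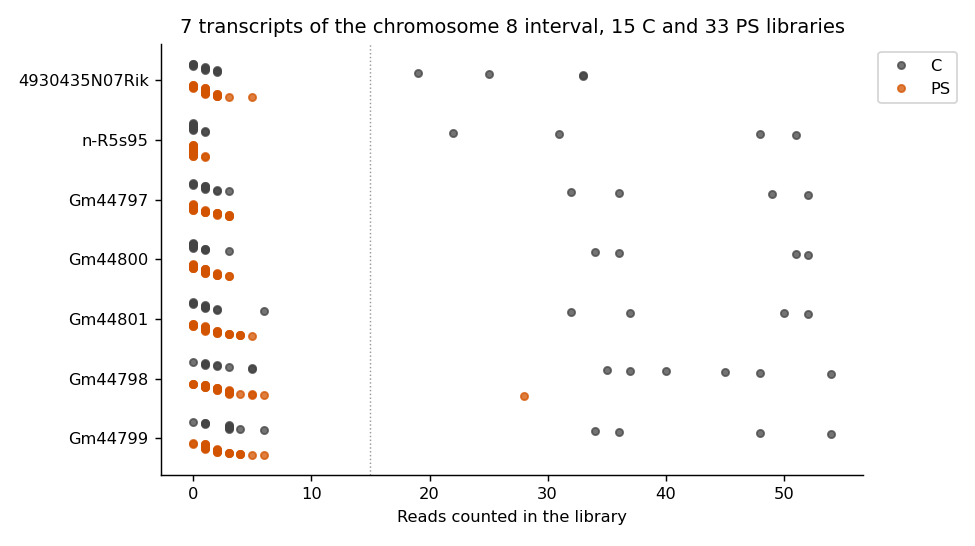
Reads (x axis) counted in each of 15 C and 33 PS libraries (points) for 7 transcripts of the chromosome 8 interval (y axis), with a dotted line at 15 reads. Beyond the line lie C libraries and 1 PS library with 28 reads of Gm44798, and all other PS libraries have 0 to 6 reads.

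RP23-185B22.1, a long intergenic non-coding RNA also on chromosome 8 (60719291 to 60725806) but outside that interval, was higher in PS libraries. It had 0.0976, 0.380 and 0.625 CPM (lowest, median, highest) in C and 0.326, 0.596 and 0.991 CPM in PS libraries, which correspond to 2 to 18 and 7 to 23 reads. The groups overlap, with 6 C libraries below all PS libraries and 14 PS libraries above all C libraries. Its log2 fold change was 0.80 (standard error 0.15, adjusted p = 0.00442 in edgeR's test), with 1.28 within 5-Htt+/- and 0.48 within 5-Htt+/+. The call was lost without the 6 libraries at the far end of the first component (0.69, adjusted p = 0.066 in edgeR's test) and held in all 48 fits that left out 1 library. Of 22 other settings, 17 kept it.

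M1ap, a gene required for meiosis in male germ cells (chromosome 6, 82946902 to 83030309), had 0.295, 0.683 and 0.859 CPM in C and 0.600, 0.844 and 1.09 CPM in PS libraries. The groups overlap, with 16 PS libraries above all C libraries. Its log2 fold change was 0.42 (standard error 0.09, adjusted p = 0.0443 in edgeR's test), and 15 of the 48 fits that left out 1 library called it. DESeq2 (adjusted p = 0.195) and the likelihood ratio test of edgeR (adjusted p = 0.0734) did not call M1ap. Of 22 other settings, 3 kept its call and 19 lost it. Gm19287 and Gm43981 on its strand and Gm43985 on the other lie within it, and reads shared with them cannot be told apart.

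Mir451b was listed with 0 to 9 reads in C and 0 to 3 reads in PS libraries, and 4 C and 17 PS libraries had none. The microRNA is annotated on the minus strand and overlaps Mir451a, a microRNA of red blood cells at chr11:78073170-78073241 on the plus strand. The mature sequences from RefSeq are shown, with the seed (bases 2 to 8) in capitals. Where the 2 genes overlap, a count that does not use strand cannot separate them.
mmu-miR-451b: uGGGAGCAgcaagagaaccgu
mmu-miR-451a: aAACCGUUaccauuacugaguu
The seeds of both differ. The fitted log2 fold change of Mir451b was -1.82 (standard error 0.39, adjusted p = 0.0288 in edgeR's test), and the call was lost under DESeq2, the likelihood ratio test and without 5 single C libraries. Of 20 other settings that tested Mir451b, 10 kept the call. The counts of haemoglobin genes, which mark blood, had a median of 202 CPM in C and 183 CPM in PS libraries.

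The 7 genes next in order of p were not called, with adjusted p from 0.0505 to 0.108 in edgeR's test. Prr5, which encodes a subunit of the kinase complex mTORC2 that activates Sgk1, had 3.79, 5.19 and 7.04 CPM (lowest, median, highest) in C and 2.94, 4.16 and 5.56 CPM in PS libraries. Its log2 fold change was -0.35 (standard error 0.07, adjusted p = 0.0505), with -0.48 within 5-Htt+/-, where it was called (adjusted p = 0.0327 in edgeR's test), and -0.22 within 5-Htt+/+. Adipor2, a receptor gene of adiponectin, had 40.1, 47.0 and 54.7 CPM in C and 37.0, 41.7 and 50.0 CPM in PS libraries, a log2 fold change of -0.15. The libraries of both genes overlap, with the lowest levels in PS. Ubald1 had -0.21 and the lincRNA Gm26747 had -0.70, whereas the pseudogene Gm6946 had 0.87 at levels under 0.5 CPM. Gm37537, with a median of 0 CPM in both C and PS libraries, and n-R5s95 complete the 7.

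The 28 glucocorticoid-induced genes were chosen as a list of targets of the receptor, with earlier results of these data known. Their counts are thus a description and no independent support. All 28 genes passed the filter on low counts. Of these, 26 had a negative and 2 a positive log2 fold change, with a median of -0.19 beside -0.0028 over all genes tested. At an unadjusted p under 0.05, 17 were lower and 0 higher, against 7.27% lower and 4.96% higher over all genes. Sgk1 and Nfkbia were called. Of the others, the metallothionein Mt1, which binds zinc and copper, had 52.9, 71.2 and 134 CPM (lowest, median, highest) in C and 50.5, 58.4 and 78.8 CPM in PS libraries (log2 fold change -0.28, adjusted p = 0.11 in edgeR's test). Tsc22d3, which encodes the glucocorticoid-induced leucine zipper protein, had 37.3, 50.9 and 77.3 CPM in C and 37.3, 45.5 and 56.5 CPM in PS libraries (log2 fold change -0.25, adjusted p = 0.122 in edgeR's test). The C and PS libraries of both genes overlap, and the highest values are those of C libraries.

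Among other members, the clock gene Per1 had -0.17, the transcription factor gene Klf15 had -0.22, the lipid transporter gene Mfsd2a had -0.21 and Hif3a had -0.45, all without a call. Fkbp5, which encodes a chaperone that restrains the receptor, had -0.08, and Klf9, another target, had 0.00. Within 5-Htt+/-, 20 of the 28 genes were lower and 1 higher at an unadjusted p under 0.05. Sgk1, Tsc22d3, Per1, Nfkbia, Mt1, Mt2, Klf15, Mfsd2a and Arl4d were called in the fit of all 48 libraries. Over all genes 10.1% were lower and 7.53% higher there. A fit of 5-Htt+/- libraries alone had 19 members lower and 1 higher, beside 9.35% of all genes lower. It called 7 genes in all, Sgk1 and Nfkbia among them. Within 5-Htt+/+, 2 were lower and 0 higher, beside 1.4% and 1.5% of all genes, and 0 were called in edgeR's quasi-likelihood test. The median was -0.32 within 5-Htt+/- and -0.05 within 5-Htt+/+, and 26 of the 28 genes had the larger absolute value within 5-Htt+/-. The difference between the genotypes had an unadjusted p under 0.05 for 15 members, beside 6.18% of all genes, and was called for 0, where the smallest adjusted p was 0.489 in edgeR's test.

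Without the 6 libraries at the far end of the first component, 11 of 28 members were lower and 0 higher over both genotypes at an unadjusted p under 0.05, with a median of -0.14 and 2.17% of all genes lower. Within 5-Htt+/- the same omission left 17 members lower, 1 of them called, which was Sgk1 (-0.56, adjusted p = 0.00496 in edgeR's test), beside 3.32% of all genes. In the 48 fits that left out 1 library, 13 to 19 members were lower over both genotypes, with medians between -0.21 and -0.15. Of 39 RefSeq windows of 25 list members matched, 8 (20.5%), belonging to 5 genes and 3 of them to Sgk1, held the half-site, beside 19% of all windows and 14.6% of those of genes tested.

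**Figure D4:**
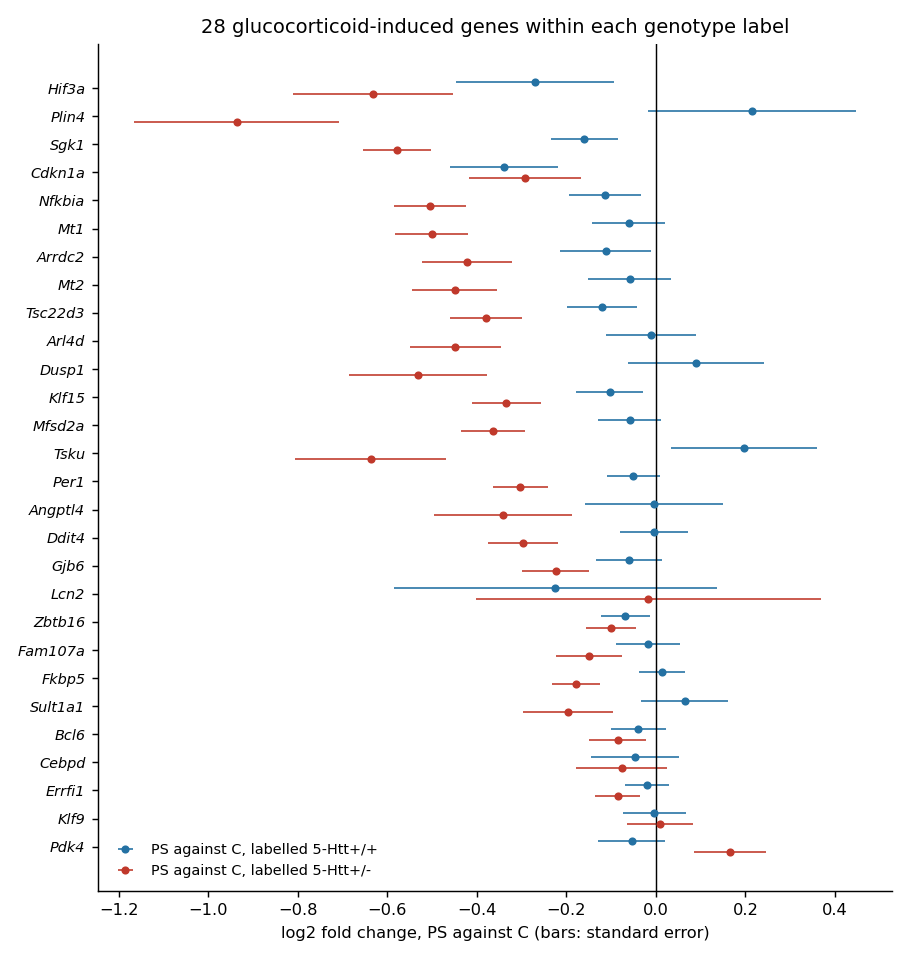
Log2 fold change of PS against C (x axis, bars for the standard error) of 28 glucocorticoid-induced genes (y axis) within each genotype label. Within 5-Htt+/- most genes lie below 0, with a median of -0.32, and within 5-Htt+/+ they lie around a median of -0.05.

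The receptors themselves and the upstream hormones showed no called gene among 16 members tested. For Nr3c1 the log2 fold change was 0.13 (standard error 0.05, adjusted p = 0.343 in edgeR's test) and for Nr3c2 it was 0.02 (standard error 0.04). At an unadjusted p under 0.05, Nr3c1 and the chaperone gene Hsp90aa1 (0.15) were higher and Avp, the gene of vasopressin, was lower (-0.98, standard error 0.34). The metallothionein and zinc transporter list had 4 of 12 members lower at an unadjusted p under 0.05, which were Mt1, Mt2, Mt3 and Slc30a3, and a median of -0.01. The shares of all genes at that p were 7.27% lower and 4.96% higher.

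Cell type markers were read in the same way, beside 7.27% of all genes lower and 4.96% higher at an unadjusted p under 0.05. Of 17 genes of myelinating oligodendrocytes, 15 had a negative value and 9 were lower at an unadjusted p under 0.05, with a median of -0.14, and 0 were called in edgeR's test. Mag, a myelin adhesion protein gene, had -0.24 (standard error 0.07), Cnp had -0.13 and Mbp, the gene of myelin basic protein, had -0.15. Within 5-Htt+/- Mag was called (-0.44, adjusted p = 0.0333 in edgeR's test). The median of the list was -0.25 within 5-Htt+/- and 0.00 within 5-Htt+/+. Without the 6 libraries at the far end of the first component 0 members were lower at an unadjusted p under 0.05 and the median was -0.06. Among 11 genes of oligodendrocyte precursors 5 were lower, with Olig1, a transcription factor of the lineage, at -0.21 (standard error 0.06), and the median was -0.09. In whole tissue, fewer cells of a type and less RNA per cell cannot be told apart.

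Astrocyte markers had 4 of 15 members lower, among them Ntsr2 at -0.10 and Aldh1l1 at -0.12, with a median of -0.06. The endothelial list had a median of -0.02. Its member Slc2a1 was called, whereas Emcn (0.13) and Tek (0.09) had higher values at an unadjusted p under 0.05, and Pecam1 (-0.04) and Kdr (0.08) had none. Microglia, interneurons and principal neurons had medians of -0.04, -0.04 and 0.02, with 1 or 2 members each at an unadjusted p under 0.05.

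Of 20 immediate early genes, which neuronal activity switches on, 16 had a negative value and 5 were lower at an unadjusted p under 0.05 (Fosb -0.26, Egr1 -0.24, Egr4 -0.23, Egr3 -0.16, Junb -0.16), and the median was -0.11. Circadian clock genes had 5 of 22 members lower, which were Per1, Bhlhe40, Nr1d1, Per2 and Ciart, with a median of 0.00. Lists can share members, and Per1, like Mt1 and Mt2 of the metallothionein list, is also among the glucocorticoid-induced genes. The 13 transcripts of the mitochondrial genome had 13 positive values, 4 of them with an unadjusted p under 0.05, and a median of 0.09. With the first component as a term that count was 0 and the median 0.04. Of 14 chaperones of the endoplasmic reticulum 13 had a positive value and 4 were higher at an unadjusted p under 0.05, Hsp90b1 and Hspa5 at 0.17 each, with a median of 0.05. Cytosolic heat shock genes had 5 higher and 1 lower of 15, and ribosomal protein genes had 15 lower of 79 with a median of -0.04. None of the members of these lists was called. Beside their counts stand 7.27% of all genes lower and 4.96% higher at an unadjusted p under 0.05. Serotonin receptor genes had 0 of 14 members with an unadjusted p under 0.05, and the enzymes and transporters of serotonin had 1 of 12.

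In the remaining lists 0 members were called in edgeR's quasi-likelihood test. Some had an unadjusted p under 0.05, beside 7.27% lower and 4.96% higher of all genes. These were 3 higher and 3 lower of 36 glutamate and GABA receptor subunits (median 0.05), 7 lower of 51 nuclear genes of oxidative phosphorylation (median -0.04), 2 higher of 22 interferon-induced genes (median 0.07) and 1 lower of 15 genes of adult neurogenesis, which was the replication gene Mcm2 (-0.19). Neurotrophic factors and receptors had 1 higher and 1 lower of 15, the latter being the neuropeptide precursor gene Vgf (-0.17). DNA methylation enzymes had 1 in each direction of 12, and H3K4 methyltransferases and demethylases 1 in each direction of 19. Of 19 imprinted growth genes Ndn was lower (-0.11). Of markers of tissues beside the hippocampus, 0 of 9 thalamic, 0 of 11 meningeal and 0 of 9 pituitary and pineal genes had such a p. Of ependymal genes 1 of 17 did, and of genes of mural cells, which belong to blood vessels, 0 of 9 did.

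**Figure D5:**
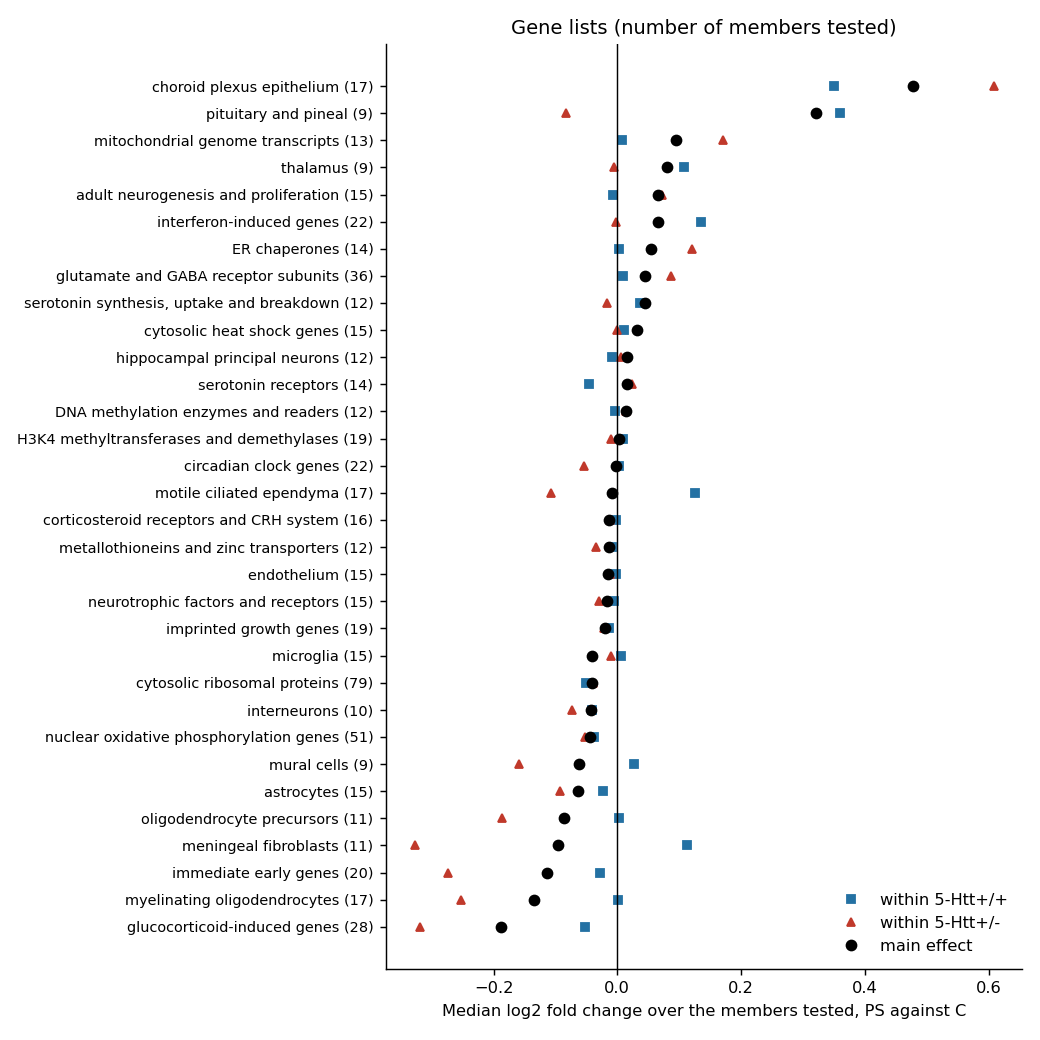
Median log2 fold change of PS against C (x axis) over the members tested of 32 gene lists (y axis, number of members in brackets), for the main effect and within each genotype label. Glucocorticoid-induced genes have the lowest median (-0.19) of the main effect and choroid plexus genes the highest (0.48), the latter with 0 members at an unadjusted p under 0.05.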

How the data were processed

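The authors deposited raw counts of reads, whole numbers for each gene in 48 libraries. STAR and Salmon are named in the study's methods. STAR is also in the processing notes of the submitters, together with HTSeq, DESeq2 and GRCm38.p5, so that the counting tool is not certain. Versions of STAR, Salmon and HTSeq and the strand setting were not given in the sources used here. A gene was tested when 3 or more libraries had 5 or more reads (31208 of 48440 genes). The counts were scaled by upper quartiles and fitted with genotype label and stress in edgeR 4.0.16 (quasi-likelihood test, R 4.3.3), with Benjamini-Hochberg adjustment over all genes tested. Means per genotype and stress gave the effects within each label and their difference, and a fit with C, SA and SU gave those groups. Library measures were compared by exact permutation tests (SciPy 1.17.1). The fit was checked on simulated counts of independent genes, in which only genes with many reads were changed. That check does not cover transcripts of few reads or a factor shared by libraries. Named genes are the called genes, the 20 of smallest p and up to 4 members per list. The comparison and the 32 lists were chosen with earlier results of these data known. Alternatives were DESeq2 1.42.0, other scalings, filters and terms, and omitted libraries. No duplicate deposit was found among 169 pairs of libraries within groups. The p-values set each difference against the spread between libraries, in which litter is not modelled.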

Additional observations from a re-analysis of the deposited data

Results flagged for a closer look

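In each of the 6 groups the most extreme library was compared with the nearest of the others by Dixon's criterion, for 13 called genes and 4 library measures, 102 checks in all. Of these, 13 stood apart. The criterion flags about 1 in 20 for independent, normally distributed values, which transcripts of few reads and of 1 interval are not. The number of flags can therefore not be set against chance. Among transcripts of the chromosome 8 interval, 5-Htt+/- C replicate 5 had 0.943 CPM of Gm44797 (nearest other 0.161), 1.06 CPM of Gm44799 (nearest 0.286), 1.06 CPM of Gm44800 (nearest 0.143) and 0.943 CPM of Gm44801 (nearest 0.0844). The other high value was 1.32 CPM of Gm44798 in 5-Htt+/- SU replicate 2 (nearest 0.137). At the level of a few reads, 4930435N07Rik was at 0 in 5-Htt+/- C replicate 3 and at 0.221 CPM in 5-Htt+/- SA replicate 3. Gm44799 was at 0.186 CPM in 5-Htt+/- SA replicate 4 and at 0.307 CPM in 5-Htt+/- SU replicate 9, and Gm44801 was at 0.116 CPM in 5-Htt+/+ SU replicate 2. Mir451b was at 0.115 CPM in 5-Htt+/+ SA replicate 5 and at 0.124 CPM in 5-Htt+/- SU replicate 6. In 5-Htt+/+ SA replicate 1, 33603 genes were detected, the lowest of its group. Sgk1, Nfkbia, Slc2a1, Pim3, RP23-185B22.1 and M1ap gave no such library in any group.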

How the results depend on the processing

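The 13 calls of the main effect became 2 with the stricter filter (at least 10 reads in at least 15 libraries), 2 without the transcripts of the chromosome 8 interval, 0 with SA or SU libraries as the only PS libraries, 6 with 5-Htt+/+ and 7 with 5-Htt+/- libraries only, and 8 to 19 when 1 library was left out. The other alternatives gave 9 to 19. Within 5-Htt+/- the 53 calls became 159 with the likelihood ratio test and 3 without the 6 libraries at the far end of the first component. No scaling moved the median of all genes by over 0.1. The replicate numbers do not pair the libraries (29 of 115 same-number pairs correlated above 0.1, and 7 of 48 libraries lay closest to their own number). With the replicate block 10 genes were called in the main effect, 39 within 5-Htt+/-, 8 within 5-Htt+/+, 2 for the difference between the genotypes and 1 between SA and SU. None of the 20 genes of smallest p changed direction in the 1374 refits that tested them, most of which left out 1 library. Of these refits 193 ended a call and 48 made one, and the other named list members were not followed singly. With 5-Htt+/- libraries only, 4930435N07Rik did not pass the filter. Its log2 fold change was positive within 5-Htt+/- in the fit of all 48 libraries. The medians of the 32 lists moved by less than 1 SD of the controls under other scalings and without the 6 libraries. The fits without the interval, those within a genotype without the 6 libraries, and the alternatives of the 2 differences were chosen after seeing the data. The cause of the changes was not tested. Genes of few reads limit what the depth can show.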
